A study of Arabidopsis thaliana and Arabidopsis lyrata subsp. lyrata with 12 samples.

Results

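The plastid genome of *A. thaliana* is represented in the gene table by the 133 loci whose names start with ATCG, out of 32678 loci in all. They comprise 88 protein-coding, 37 transfer RNA and 8 ribosomal RNA loci. Because the plastid genome holds an inverted repeat, 18 loci are exact copies of another one, which leaves 115 distinct sequences. Transcript levels were measured in rosette leaves of Col-0 wild-type plants grown for 3 weeks on soil under long days, at 21 °C by day and with cooler nights. Control plants stayed in these conditions, heat stress (HS) consisted of 6 h at 37 °C, and recovered plants were returned to the conditions of the control for 48 h once the HS had ended. Each condition had 2 libraries, and 6 of the 12 libraries of the series are from *A. thaliana*. HS and recovery were compared with shared control libraries, whose plants were harvested when the stress ended, so that recovery and 48 h of further growth cannot be told apart.

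Plastids keep a small genome of bacterial origin that encodes core subunits of the photosynthetic complexes, part of the ribosome and a bacterial-type RNA polymerase (PEP). PEP core subunits are made from *rpoA*, *rpoB*, *rpoC1* and *rpoC2*, and PEP is guided to promoters by sigma factors encoded in the nucleus. A second transcription system uses phage-type RNA polymerases imported from the cytosol, and the *rpoB* operon is a known target of it. Most other subunits of the photosynthetic complexes are nuclear. Plastid transcripts are usually polycistronic, are cut, spliced and edited after transcription, and carry poly(A) tails mainly as a mark for decay. The libraries were made with a kit for messenger RNA that selects poly(A) tails, and not for organelle RNA. Read numbers of plastid loci therefore describe what entered these libraries. Fewer plastids or cells and less RNA per cell cannot be told apart in leaf RNA.

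The loci with the largest differences after HS included a run of neighbours on the plus strand, the photosystem II genes *psbK* and *psbI* and the glycine transfer RNA gene *trnG*, which were higher, and the valine transfer RNA gene *trnV* on the minus strand, which was lower. Their sequences are shown because *psbK* and *psbI* are short genes of 186 and 111 bases, read with 100-base reads, and because the exons of both transfer RNA genes together are shorter than such a read. The sequences are from RefSeq (TAIR10.1), at ChrC:7017-7202 for *psbK*, ChrC:7583-7693 for *psbI*, ChrC:8646-9431 for *trnG* and ChrC:51199-51871 for *trnV*. Capitals mark the start and stop codons of the coding sequences and the second exon of the transfer RNAs, whose exons are joined here without the intron.
psbK: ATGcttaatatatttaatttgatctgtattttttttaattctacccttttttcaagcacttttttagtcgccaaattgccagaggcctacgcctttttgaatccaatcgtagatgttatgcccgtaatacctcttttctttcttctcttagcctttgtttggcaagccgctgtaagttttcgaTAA
psbI: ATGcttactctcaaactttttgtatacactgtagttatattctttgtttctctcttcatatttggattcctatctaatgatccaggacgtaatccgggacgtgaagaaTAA
trnG: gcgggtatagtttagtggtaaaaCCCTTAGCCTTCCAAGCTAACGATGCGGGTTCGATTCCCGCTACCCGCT
trnV: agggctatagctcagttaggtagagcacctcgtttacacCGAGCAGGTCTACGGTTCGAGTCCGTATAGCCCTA

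The 6 libraries held 9624503 to 45254555 reads counted to genes, with the extremes both in HS. Leaf mesophyll markers were present in all libraries (5 of 5 tested, 37940 to 66310 CPM in sum), root markers summed to 10.5 to 20.1 CPM with 2 of 8 at 0 throughout, and flower and meristem markers summed to 2.76 to 9.96 CPM outside HS and to 24.6 and 23.9 CPM in HS. The part of these markers in the results was not tested. Levels are given as TMM-scaled CPM, the reads of a locus relative to the scaled size of the library, differences as log2 fold changes with standard error (SE), and p-values from edgeR are adjusted by Benjamini-Hochberg over the 18536 loci tested, with a threshold of 0.05. No source states that the 2 libraries of a condition came from separate growth experiments, so p-values measure the spread between these libraries. Intervals cover counting error only. Reads were counted without strand, so a locus and a transcript from its opposite strand cannot be told apart. Copies of plastid sequence elsewhere are rare over whole reads. Of all 100-base windows of the plastid genome, 0.51% occurred without mismatch in the nuclear chromosomes and 0.54% in the mitochondrial genome. No such window was found in *psbK*, *psbI*, *trnG*, *trnV* or *rpoC1*, while *rbcL* (3.0%), *rrn23S* (9.5%) and the shorter *ycf1* locus (10.8%) share some with the mitochondrial genome.

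Plastid loci held 0.588 and 0.797% of all counted reads in the control libraries, 0.180 and 0.287% in HS and 0.271 and 0.271% after recovery. Both control libraries stood above the other 4 libraries. The 95% Wilson intervals were narrow, at 0.177 to 0.182% for the lowest library and 0.793 to 0.800% for the highest. The difference of the means was -0.459 percentage points for HS and -0.422 for recovery, and the exact two-sided permutation test gave p = 0.333 for each, the smallest value that 2 against 2 libraries allow. These shares sum both copies of the repeat. With each pair of copies counted once, in a calculation added after seeing the data, they were 0.310 and 0.418% in the control, 0.0975 and 0.153% in HS and 0.146 and 0.145% after recovery, and the differences were -0.239 and -0.218 percentage points. Whether a read of the repeat was counted in both copies or divided between them is not given in the sources used here. Most plastid reads fell on ribosomal RNA, which made up 90.03 to 94.31% of them with both copies and 82.9 to 90.2% with copies counted once. Without ribosomal and transfer RNA loci the differences were -0.0159 and -0.0126 percentage points. Reads of mitochondrial loci moved the other way in HS, at 0.107 and 0.238% against 0.0120 and 0.0192% in the control and 0.0105 and 0.0110% after recovery.

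**Figure D1:**
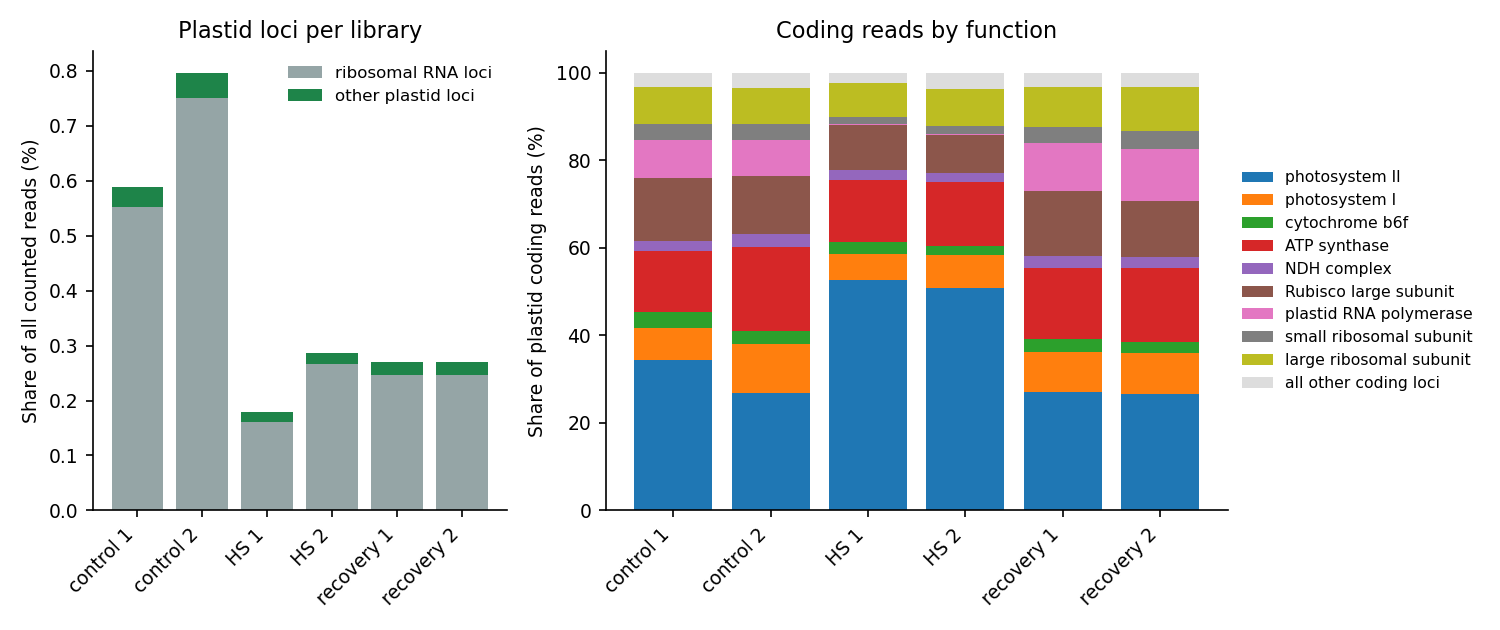
Left, share of all counted reads (%) on plastid ribosomal RNA loci and on other plastid loci in each of the 6 libraries, with both repeat copies summed. Right, share of the plastid protein-coding reads (%) held by each functional group, with repeat copies counted once. The control libraries reach 0.588 and 0.797% on the left, and photosystem II widens to 52.7 and 50.8% in the HS libraries on the right, where the band of the plastid RNA polymerase nearly disappears.

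Within the protein-coding reads the balance between functions shifted in HS. With repeat copies counted once these were 3857 and 9985 reads in the control, 1449 and 8094 in HS and 2102 and 2086 after recovery. The 15 photosystem II loci held 34.4 and 26.9% of them in the control, 52.7 and 50.8% in HS and 27.0 and 26.7% after recovery. The 4 subunits of PEP held 8.53 and 8.40% in the control, 0.207% (3 reads, Wilson interval 0.0704 to 0.607%) and 0.334% in HS, and 11.0 and 11.8% after recovery. Both HS libraries lay apart from the other 4 for these functions, upward for photosystem II and downward for PEP. The 6 ATP synthase loci held 13.8 and 19.3% in the control, 14.0 and 14.5% in HS and 16.4 and 16.9% after recovery, where HS and control overlapped. Loci of the small ribosomal subunit held 3.79 and 3.59%, then 1.52 and 1.82%, then 3.57 and 4.03%. Loci of the large subunit of the ribosome stayed between 7.87 and 10.0% in every library.

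A total of 55 of the 133 plastid loci had enough reads to be tested, or 48 of 115 with repeat copies counted once. After HS, 7 of the 55 were higher (12.7%) and 26 were lower (47.3%), while over all loci tested 34.9% were higher and 39.5% lower. The median log2 fold change of the tested plastid loci was -0.69, and that of all loci tested was -0.12. Both HS libraries lay above both control libraries in 8 loci (40.1% of all loci tested did so) and below them in 31 (45.7% of all). Counting repeat copies once, 6 passed as higher and 22 as lower. These counts include loci that entered the test through 1 condition alone. *psbK*, *psbI* and the shorter *ycf1* locus reached the filter of 0.81 CPM in both libraries of HS only, and 16 loci were under it in both HS libraries. A stricter filter, with 10 reads or more in all 6 libraries, left 26 plastid loci, of which 1 was higher and 10 were lower. The share of all loci under this filter, or with a library left out, is not given here. The count of higher loci was 4 when scaled by library totals (18.4% of all loci), 14 without control replicate 2 and 3 without HS replicate 2.

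**Figure D2:**
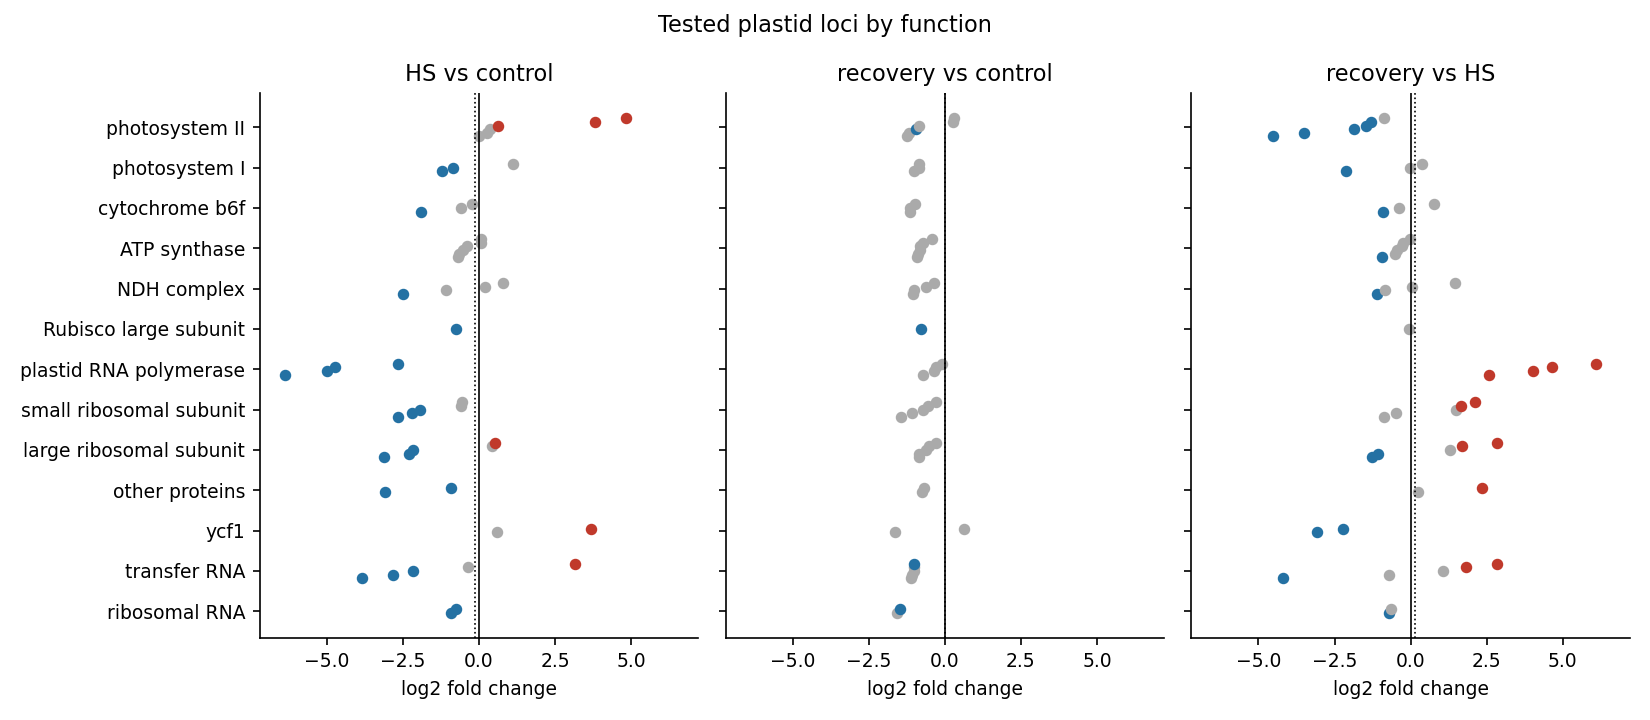
Log2 fold changes of the tested plastid loci by function for 3 comparisons, with repeat copies counted once. Red points are higher and blue points lower at an adjusted p under 0.05, grey points did not pass, and the dotted line is the median of all loci tested. All 4 PEP subunits lie left of -2.6 in HS against control and right of 2.5 in recovery against HS.

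All 4 PEP subunit loci were lower in HS (4 tested, median -4.86), against 39.5% of all loci tested (median -0.12). They were under the filter of 0.81 CPM in both HS libraries and entered the test through control and recovery alone. The stricter filter given above could not test them, so the count and the calls are a description. *rpoB*, *rpoC1* and *rpoC2* had the lowest log2 fold changes of the tested plastid loci. *rpoB*, which encodes the β subunit, had 201 and 468 reads in the control, 1 and 15 in HS and 130 and 149 after recovery. Both HS libraries were far below the other 4, and they include the deepest and the shallowest library. In the shallowest, HS replicate 1, 3 reads are worth 0.439 CPM. Its level was 12.1 and 15 CPM in the control, 0.146 and 0.494 CPM in HS and 10.1 and 11.0 CPM after recovery, and the log2 fold change in HS was -5.0 (SE 0.31, adjusted p = 4.66e-06 from edgeR). *rpoC1*, for the β′ subunit, had 68 and 185 control reads, 1 and 1 in HS, and 49 and 61 after recovery. With 2 reads in the HS group, the control to HS ratio was 98.5 (95% counting interval 27.0 to 818), and the recovery to HS ratio was 77.5 (20.9 to 648). *rpoC2*, for the β″ subunit, had 41 and 146 reads, then 0 and 5, then 32 and 27, with a log2 fold change of -4.73 (SE 0.62, adjusted p = 0.000229 from edgeR) in HS. These 3 genes form 1 operon, whose summed level was 18.7 and 25.6 CPM in the control, 0.293 and 0.691 CPM in HS and 16.4 and 17.5 CPM after recovery. *rpoA*, for the α subunit, lies in another operon and had 19 and 40 reads, then 1 and 6, then 20 and 10. Its log2 fold change in HS was -2.67 (SE 0.55, adjusted p = 0.00277 from edgeR, and 0.0514 without HS replicate 2).

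The lowered loci of the ribosome lay mostly beside *rpoA*. The *rpl23* to *rpoA* operon holds 11 loci, of which 8 were tested, 7 were lower in HS and 1 was higher. Over all loci tested 39.5% were lower and 34.9% higher. *rpl14*, for a protein of the large subunit, had 20 and 62 control reads, 0 and 7 in HS and 17 and 18 after recovery, and its log2 fold change in HS was -3.14. *rps3*, for a protein of the small subunit, was at 2.78 and 2.72 CPM, then 0.439 and 0.428 CPM, then 1.63 and 2.14 CPM, with a log2 fold change of -2.65. *rpl16* was at 5.97 and 8.53 CPM, then 0.585 and 1.84 CPM, then 4.75 and 4.87 CPM, with a log2 fold change of -2.30. In these loci no HS library overlapped a library of the other conditions. *rpl22* had a log2 fold change of -2.15. *rpl2*, for a core protein of the large subunit in the same operon, went the other way, with 7.60 and 9.33 CPM in the control and 11.3 and 13.2 CPM in HS. Its log2 fold change was 0.54 (adjusted p = 0.0204 from edgeR), but -0.20 with library totals, and it did not pass without HS replicate 2. Outside this operon, *rps14* (-0.57), *rps7* (-0.58) and *rpl32* (0.44) did not pass, though *rps14* did without control replicate 1 (-0.83).

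Photosystem II held 3 of the 7 increases, and 9 of its 15 loci were not tested, while over all loci tested 34.9% were higher. The small genes *psbK* and *psbI* entered the test through the HS libraries alone, and *psbD* lost its call under several alternatives given below, so the count is a description. *psbK*, for a small subunit near the reaction centre core, had 8 and 22 control reads, 127 and 516 in HS and 8 and 12 after recovery. Both HS libraries were more than an order of magnitude above the other 4 in CPM, at 18.6 and 17 CPM against 0.483 to 0.885 CPM. The log2 fold change was 4.82 (SE 0.25, adjusted p = 2.07e-06 from edgeR). *psbI*, another small subunit, had 4 and 6 reads, then 20 and 95, then 1 and 6. Its log2 fold change was 3.81 (SE 0.51, adjusted p = 0.00027 from edgeR). *trnG*, downstream on the same strand and interrupted by an intron, had 36 and 50 reads, then 124 and 467, then 12 and 12, or 2.17 and 1.60 CPM, then 18.1 and 15.4 CPM, then 0.933 and 0.885 CPM. It was higher in both HS libraries by a log2 fold change of 3.17 (SE 0.22, adjusted p = 7.76e-06 from edgeR), and the next tested locus along the genome, *atpA*, had a log2 fold change of 0.07. The calls of *psbK*, *psbI* and *trnG* held in each alternative that could test them. The stricter filter given above could not test *psbK* and *psbI*, which had too few reads outside HS. All alternatives used the same libraries, so for *psbK* and *psbI* they are no independent check of the calls.

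Loci for the large photosystem II proteins had smaller log2 fold changes. *psbD*, for the D2 reaction centre protein, was at 5.85 and 9.90 CPM in the control, 12.1 and 12.4 CPM in HS and 3.42 and 3.39 CPM after recovery. Its log2 fold change in HS was 0.62 (SE 0.24, adjusted p = 0.0464 from edgeR), but -0.11 with library totals, and it did not pass without HS replicate 1 or 2 (adjusted p = 0.113 and 0.171 from edgeR) or in DESeq2 (adjusted p = 0.0565). *psbA*, for the D1 protein, which is replaced continually in the light, was at 54.4 and 42.2 CPM, then 54.1 and 68.2 CPM, then 26.9 and 23.6 CPM. Control and HS overlapped (log2 fold change 0.35, adjusted p = 0.086 from edgeR), and the locus passed when either control library was left out (0.58 without replicate 1, 0.26 without replicate 2). The antenna protein genes *psbC* (0.28) and *psbB* (0.01) did not pass in HS, but passed without control replicate 2 (0.86 and 0.69).

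**Figure D3:**
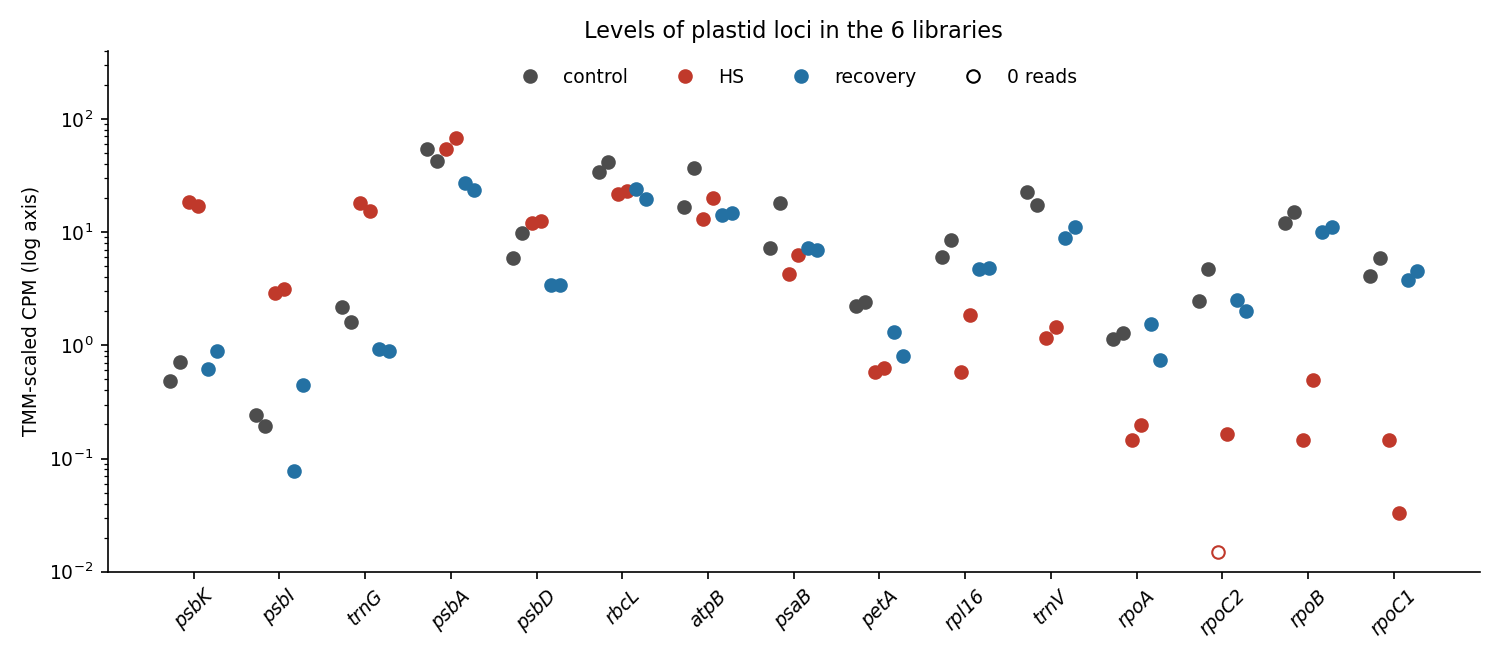
TMM-scaled CPM on a log axis of 15 plastid loci in the 6 libraries, 1 point per library, with an open point at the bottom of the axis for 0 reads. The HS points of psbK stand at 18.6 and 17 CPM above all other libraries, and those of rpoB stand at 0.146 and 0.494 CPM below them.

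Levels were also ranked per kilobase of locus, introns included. These ranks describe reads in libraries selected for poly(A) tails and not amounts of transcript. Over the 41 tested coding loci, *psbA* ranked first in the control at 45.5 ± 8.16 CPM per kb (SD, n = 2), followed by *rbcL* at 26.3 ± 3.98, *atpE* at 19.3 ± 10.5, *atpB* at 17.9 ± 9.61, *rpl32* at 17.1 ± 1.57 and *psaJ* at 16.8 ± 5.31 CPM per kb. The control libraries of *psbA* lay above those of *rbcL*, while from *rbcL* to *psaJ* the libraries of each neighbouring pair overlapped. In HS *psbK* ranked first at 96.1 ± 6.10 CPM per kb, from rank 22 in the control at 3.21 ± 0.850. *psbA* followed at 57.7 ± 9.38, then *psaJ* at 34.1 ± 22.0 and *psbI* at 27.5 ± 1.29 CPM per kb. After recovery the first 7 ranks held the same loci in the same order as in the control, from *psbA* at 23.8 ± 2.21 to *psbC* at 4.70 ± 0.478 CPM per kb. *rpoB* went from rank 18 in the control to 38 in HS and 14 after recovery. Loci as short as *psbK* hold few start positions for a read of 100 bases, so their levels per kb are less certain.

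Of the tested loci 2 of 3 in photosystem I, 1 of 3 in the cytochrome b6f complex and *rbcL* were lower in HS, against 39.5% of all loci tested. *psaB* and *psaA*, for the reaction centre proteins of photosystem I, were at 7.30 and 18.0 CPM and at 7.72 and 14.7 CPM in the control. In HS *psaB* was at 4.24 and 6.26 CPM and *psaA* at 5.71 and 6.75 CPM, below both control libraries. Their log2 fold changes were -1.22 (adjusted p = 0.0237 from edgeR) and -0.84 (adjusted p = 0.0319 from edgeR). Without control replicate 2 they were -0.30 and -0.20, and neither passed there or without HS replicate 1 or 2. *psaJ*, for a small subunit, had 1.11 and did not pass (adjusted p = 0.0501 from edgeR). *petA*, for cytochrome f, was at 2.23 and 2.44 CPM in the control, 0.585 and 0.626 CPM in HS and 1.32 and 0.811 CPM after recovery, with a log2 fold change of -1.92 in HS (adjusted p = 0.00185 from edgeR). *petB*, for cytochrome b6, had -0.24 and *petD*, for subunit IV of the complex, had -0.60, and neither passed. *rbcL*, for the large subunit of the carbon-fixing enzyme Rubisco, was at 33.7 and 41.8 CPM, then 21.7 and 22.9 CPM, then 24.0 and 19.6 CPM. Its log2 fold change in HS was -0.76 (SE 0.15, adjusted p = 0.00253 from edgeR), with both HS libraries below both control libraries.

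No ATP synthase locus passed in HS (0 in edgeR before adjustment and 0 in DESeq2), while 5 of 6 were lower with library totals, as were 59.9% of all loci. The 6 log2 fold changes lay between -0.69 for *atpH*, of the membrane ring, and 0.08 for *atpF*. *atpB*, for the catalytic β subunit, was at 16.6 and 36.9 CPM in the control and 13.0 and 20.0 CPM in HS. These libraries overlapped. The locus passed with library totals (-1.41), without the low-count filter (-0.69) and with the replicate block (-0.66). Without control replicate 1 its log2 fold change was -1.04. *atpA* had a log2 fold change of 0.07, and -0.66 with library totals (adjusted p = 0.0187 from edgeR). The NDH complex cycles electrons around photosystem I. With repeat copies counted once, 4 of its 11 loci were tested. Of these, *ndhA* was lower with 15 and 44 reads in the control, 0 and 8 in HS and 7 and 8 after recovery (log2 fold change -2.5, adjusted p = 0.0068 from edgeR). The others lay between -1.07 for *ndhK* and 0.78 for *ndhD*. *ndhF*, in which 1 to 10 reads were counted per library, was not tested.

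Among the remaining proteins, *cemA*, for an envelope membrane protein encoded upstream of *petA*, had 31 and 83 control reads, 1 and 9 in HS and 16 and 20 after recovery (log2 fold change -3.10 in HS, adjusted p = 0.000365 from edgeR). *clpP*, for the proteolytic subunit of the Clp protease, had a log2 fold change of -0.93 (adjusted p = 0.0461 from edgeR), and did not pass in DESeq2 (adjusted p = 0.116), without HS replicate 1 (-0.59) or without either recovery library. *accD*, for a subunit of the acetyl-CoA carboxylase of fatty acid synthesis, had 2 and 11 reads, then 1 and 13, then 2 and 1, and was not tested. The intron maturase gene *matK*, which lies inside the intron of *trnK*, had 0 reads in all 6 libraries. Its whole span lies within the *trnK* locus, which had 18 and 41 reads, then 3 and 35, then 7 and 8. How reads within both loci were assigned is not given in the sources used here, so the 0 sets no upper limit for *matK*. The 2 loci named *ycf1*, for a large envelope protein, share sequence across the border of the repeat. Of the 100-base windows of the shorter locus, 99.8% occur in the longer one. In the mitochondrial genome 10.8% of them occur, and in the nuclear chromosomes 10.8%. The part of reads from there was not tested, and the shorter locus entered the test through HS alone. The shorter locus had 2 and 5 reads, then 8 and 73, then 5 and 1 (log2 fold change 3.69, adjusted p = 0.000991 from edgeR), and the longer one had 16 and 83, then 13 and 105, then 9 and 7 (0.59, which did not pass, and 1.71 without control replicate 2, which did). *ycf2*, the longest open reading frame, had 10 and 29 reads, then 2 and 6, then 2 and 5, and was not tested.

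Transfer RNA loci carried reads where they hold an intron. The 29 loci without one, at most 91 bases long, had at most 5 reads in any library and 27 of them had 0 throughout. The 8 with an intron are 596 to 2630 bases long, with at most 85 bases of exon. *trnV* had 375 and 537 reads in the control, 8 and 44 in HS and 113 and 150 after recovery, or 22.6 and 17.2 CPM, then 1.17 and 1.45 CPM, then 8.79 and 11.1 CPM. The 3 conditions did not overlap. The log2 fold change was -3.84 in HS (SE 0.25, adjusted p = 5.66e-06 from edgeR). In the ribosomal RNA operon *trnI* and *trnA* were lower in HS by log2 fold changes of -2.83 and -2.17. *trnG*, with the sequence given above, was the only transfer RNA locus that passed as higher.

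Ribosomal RNA loci held most plastid reads. *rrn16S*, of the small ribosomal subunit, was at 916 and 934 CPM in the control, 404 and 702 CPM in HS and 345 and 325 CPM after recovery. *rrn23S*, of the large subunit, was at 1390 and 2433 CPM, then 734 and 1279 CPM, then 633 and 665 CPM. For both, each control library was above each library of the other conditions. The log2 fold changes in HS were -0.74 (adjusted p = 0.0208 from edgeR) and -0.92 (adjusted p = 0.0292 from edgeR), and neither passed without HS replicate 1 (adjusted p = 0.107 and 0.201 from edgeR). *rrn23S* did not pass in DESeq2 either (adjusted p = 0.0836). The copies in the repeat gave the same values, since their counts differed by at most 7 reads in any library and any of the 13 pairs with reads.

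**Figure D4:**
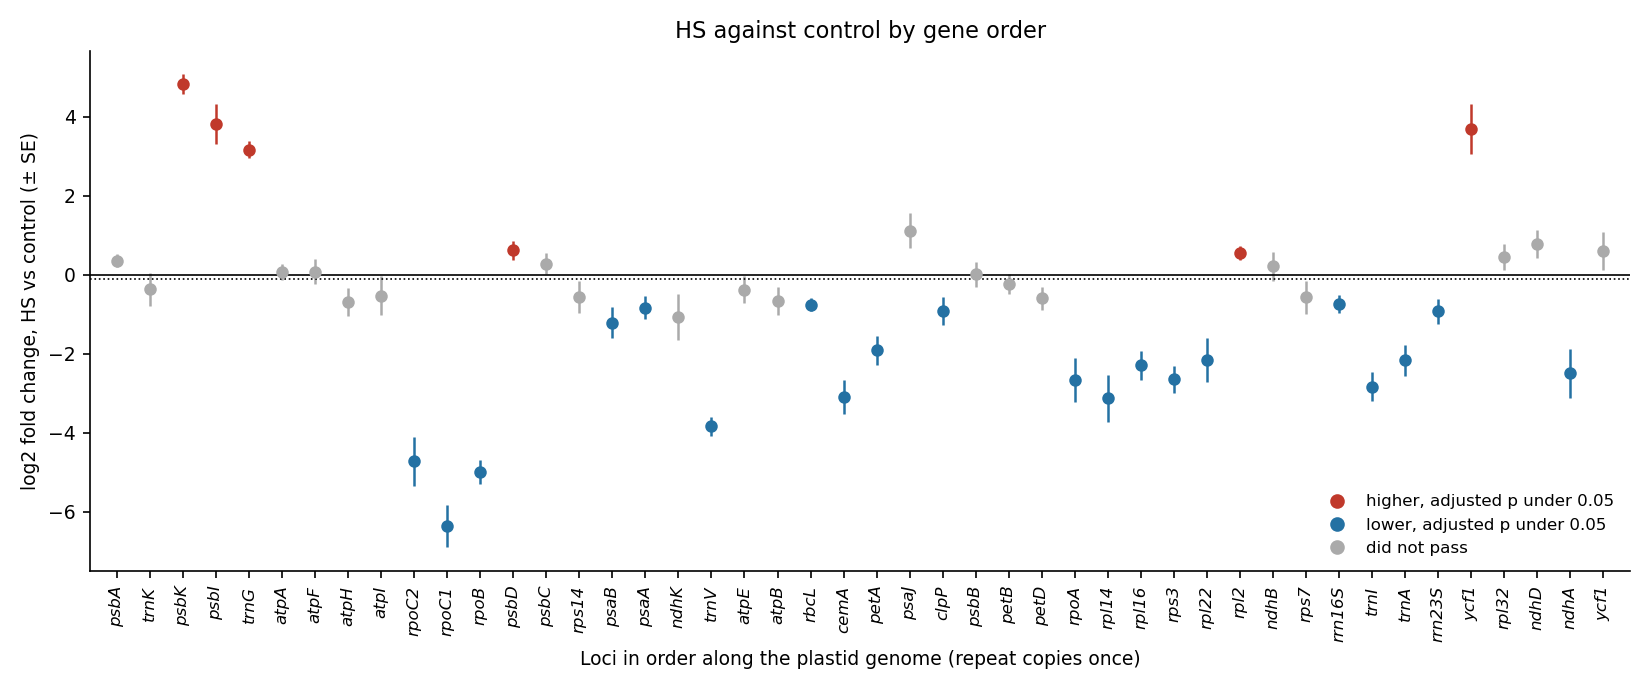
Log2 fold change of HS against control (± SE) for 46 of the 48 tested loci in their order along the plastid genome, with repeat copies counted once. Red points are higher and blue points lower at an adjusted p under 0.05, and the dotted line is the median of all loci tested. The increases of psbK, psbI and trnG (4.82, 3.81 and 3.17) stand side by side, as do the decreases of rpoC2, rpoC1 and rpoB (-4.73, -6.37 and -5.0) and the run from rpoA to rpl22.

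Features other than function were compared over the 48 tested loci without a test. Over all loci tested, nuclear ones included, 34.9% were higher and 39.5% lower. Of 14 loci with an intron 2 were higher and 7 lower in HS (median -0.76), and of 34 without one 4 were higher and 15 lower (median -0.68). Of 18 loci on the plus strand 5 were higher and 7 lower (median -0.12), and of 30 on the minus strand 1 was higher and 15 lower (median -0.88). Of the 5 increases on the plus strand, those of *psbK*, *psbI* and the shorter *ycf1* locus entered the test through HS alone. The operons on the minus strand include those of *rpoB* and *rpoA*. The *psbB* to *petD* operon (3 tested, -0.60 to 0.01), the *atpI* to *atpA* operon (4 tested, -0.69 to 0.08) and the *atpB*-*atpE* pair (-0.67 and -0.38) had no locus past the threshold. Among the 32 untested loci with at least 10 reads over all libraries, HS lay above control without overlap in 4 and below in 10, with at most 35 reads in any library. Over the loci tested these shares were 40.1 and 45.7%.

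After recovery no plastid locus was higher than in the control (0 in edgeR before adjustment and 0 in DESeq2), and 5 of 55 were lower in edgeR (9.09%), while over all loci tested 1.34% were higher and 0.766% lower. Counting repeat copies once, these were *psbA* (log2 fold change -0.93, SE 0.17, adjusted p = 0.0429 from edgeR), *rbcL* (-0.80, adjusted p = 0.0479), *trnV* (-1.0, adjusted p = 0.0488) and *rrn16S* (-1.47, adjusted p = 0.0374). The median log2 fold change was -0.86 over the tested plastid loci and 0.00 over all loci. Both recovery libraries lay below both control libraries in 42 of the 55 loci (76.4%) and above them in 0, against 25.9 and 26.7% of all loci tested. The calls depended on the fit, since *psbA*, *rbcL*, *trnV* and *rrn16S* lost theirs once any HS or recovery library was left out. HS is not part of this comparison, and without either HS library the log2 fold changes stayed at -0.93, -0.80, -1.0 and -1.47. Without recovery replicate 1 they were -1.03, -0.95, -0.84 and -1.51, and without recovery replicate 2 -0.84, -0.66, -1.18 and -1.43. DESeq2 called 9 as lower, against 2.20% of all loci, and 23 passed without the filter on low counts. The share of all loci without this filter is not given here.

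The PEP subunits were near their control levels after recovery, with log2 fold changes of -0.37 for *rpoB*, -0.29 for *rpoC1*, -0.70 for *rpoC2* and -0.10 for *rpoA*, of which none passed (0 in edgeR before adjustment and 0 in DESeq2). *rpoB* passed without control replicate 1 (-0.51). Relative to the plastid coding reads, where the median of all loci was 0.76, *psbA* and *rbcL* were at -0.20 and -0.01 after recovery. Neither passed there, while *rrn16S* kept its call and *rrn23S* passed at -0.74 (adjusted p = 0.0232 from edgeR). In the main fit *rrn23S* was at -1.56 (SE 0.32) and did not pass. It also passed in DESeq2 (adjusted p = 0.0176) and with library totals (adjusted p = 0.0471 from edgeR).

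Compared with the end of HS, 12 plastid loci were higher after recovery (21.8%) and 17 lower (30.9%), while over all loci tested 39.2% were higher and 34.1% lower. The largest increases were those of *rpoB* (4.63), *rpoC2* (4.03) and the *rpoC1* ratio given above, followed by *trnV* (2.85) and *rpl14* (2.83). The largest decreases were those of *psbK* (-4.54), *trnG* (-4.18) and *psbI* (-3.50). *psbD* (-1.85) and *psbA* (-1.29) were also lower. With library totals 22 were higher and 5 lower, against 63.4 and 15.4% of all loci. Relative to the plastid coding reads 20 were higher and 9 lower. With that scaling the median log2 fold change of all loci moved from 0.13 to 0.75, and their shares are not given here.

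Nuclear genes for the same machinery are given for comparison, from lists of 2 to 14 genes, beside 34.9% higher and 39.5% lower over all loci tested. Both phage-type RNA polymerases of the plastid were higher in HS. RPOTP (AT2G24120) was at 37.7 and 43.1 CPM in the control, 285 and 284 CPM in HS and 57.5 and 58.1 CPM after recovery (log2 fold change 2.82 in HS, SE 0.12, adjusted p = 1.02e-06 from edgeR), while *rpoB*, in the operon transcribed by this system, was lower. RPOTMP, shared with mitochondria, had a log2 fold change of 2.00. Of 13 genes for proteins bound to PEP 9 were higher and 3 lower, with PAP6 at 2.49 and PAP9 at -0.58. With library totals, 4 were higher and 5 lower, where 18.4% of all loci were higher and 59.9% lower. Of 6 sigma factors SIG3 was higher (0.72), SIG4 (-1.24) and SIG5 (-1.28) were lower, and the other 3 did not pass.

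Nuclear counts in the photosynthetic complexes stand beside the same shares of all loci in HS, 34.9% higher and 39.5% lower with a median of -0.12. *rbcL* was lower while all 4 nuclear small subunit genes of Rubisco were higher (median 0.69), which was -0.05 with none past the threshold under library totals. In photosystem I *psaA* and *psaB* were lower, as were 8 of 12 nuclear genes (median -0.82), led by PSAN at -2.28. In photosystem II, where the plastid increases of *psbK* and *psbI* entered the test through HS alone, 2 of 11 nuclear genes were higher and 3 lower, between PSBS at 0.70 and PSBTN at -0.86. Of 14 nuclear NDH genes 1 was higher (PNSL3, 1.05) and 7 lower (PNSL2, -1.51). For the b6f complex PETC was higher (0.48) where *petA* was lower, and for ATP synthase, without a plastid locus past the threshold, ATPC2 was higher (1.81) and ATPD lower (-1.32). Of 12 nuclear genes for proteins that bind and stabilize plastid RNA 8 were higher, led by HCF152 at 1.38, and 1 was lower, HCF173 at -1.22, which is needed to translate *psbA*. Of 7 genes of plastid RNA decay RHON1 (1.61) and RNR1 (1.22) were higher. After recovery 2 of the 87 nuclear genes tested passed. PAP3, for a PEP-bound protein, was higher (0.64) and PNSL2, of the NDH complex, was lower (-0.60, adjusted p = 0.047 from edgeR). Before adjustment 9 were higher and 31 lower, against 11.2 and 10.6% of all loci. DESeq2 called 3 higher and 18 lower, against 2.19 and 2.20% of all loci, and 8 of the 18 were photosystem I genes.

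**Figure D5:**
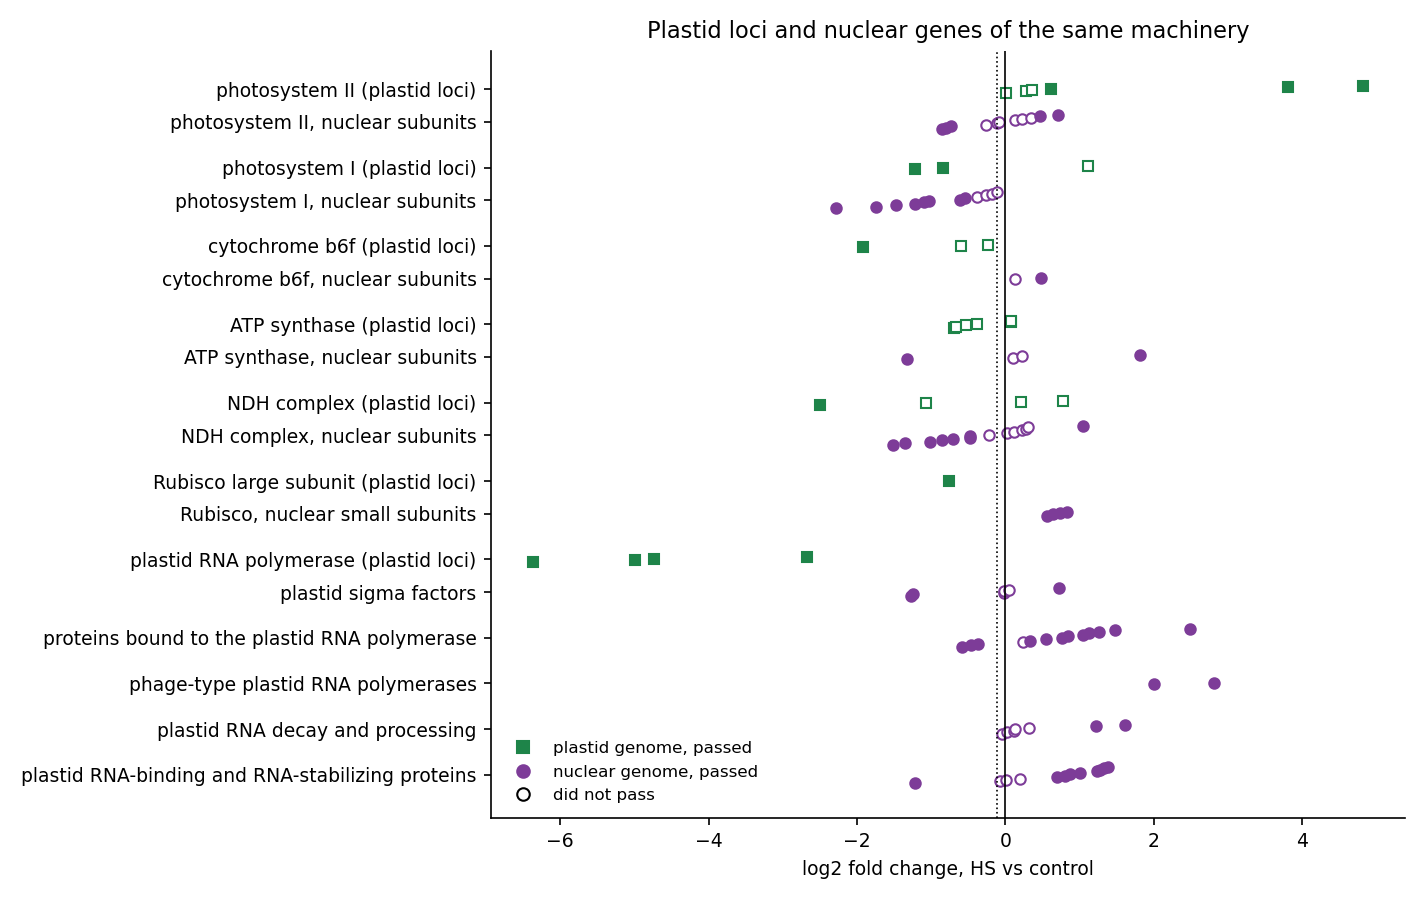
Log2 fold change of HS against control for plastid loci (squares) and nuclear genes (circles) of the same machinery, with filled symbols past an adjusted p of 0.05 and the dotted line at the median of all loci tested. The 4 PEP subunits lie between -6.37 and -2.67, while both phage-type polymerase genes lie at 2.00 and 2.82.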

How the data were processed

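The authors prepared libraries without strand information (Illumina TruSeq RNA kit), sequenced 100-base single ends, trimmed by FASTX, aligned to TAIR10 by tophat2 and counted per gene by Qualimap. The deposited values used here are these raw read counts per locus. How reads with several mapping positions were counted is not given in the sources used here. The deposited tables also hold RPKM columns, which were not used, and the tables of *A. lyrata* were not analysed here. Names of loci came from a prepared list and were compared with RefSeq (TAIR10.1), where 124 names were equal. By coordinates, 130 of 133 loci matched RefSeq by at least 1 end and 125 by both.

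Differences were tested with edgeR 4.0.16 under R 4.3.3 (filterByExpr with minimum count 10 and minimum total count 15, TMM, quasi-likelihood test). The 6 *A. thaliana* libraries were fitted together over the 18536 loci kept, with 3 residual degrees of freedom and no covariate. The SE is the size of the log2 fold change divided by the square root of F. The fit was tested on simulated data. The members and all gene lists were chosen with earlier results of these data known. Named loci were set by rule: 18 loci of general interest, and in each group of plastid loci up to 2 increases and 2 decreases past the threshold in either comparison with control, or the smallest p where none passed, and in each nuclear list 1 increase and 1 decrease. Loci under 10 reads in all libraries (41 of 133) were counted and not described. Other loci were named after their values were seen. Library totals ran from 9624503 to 45254555 reads, and reads of plastid coding loci from 1552 to 10459 per library, which limits single loci to few reads.

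Alternatives were DESeq2 1.42.0, other scalings, other filters, each library left out, a replicate block and, chosen after seeing the data, repeat copies counted once. Values of 2 tested loci are not reported here singly; both remain in the counts and medians.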

Additional observations from a re-analysis of the deposited data

How the results depend on the processing

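Limits of these values are the 2 libraries per condition, low read numbers of plastid coding loci, the unstated handling of reads with several positions, a scaling that is set by nuclear genes, and a protocol not made for organelle RNA. The median of all loci in HS against control was -0.12 with TMM and -0.87 with library totals. With library totals 4 plastid loci were higher in HS, and against HS 22 were higher and 5 lower after recovery; *atpA* (-0.66), *psbD* (-0.11) and *rpl2* (-0.20) changed sign in HS. Relative to the plastid coding reads 20 were higher and 9 lower after recovery against HS, where the median of all loci was 0.75. Without the low-count filter (103 loci) 11 were higher in HS and 23 lower in recovery against control. Shares of all loci are not given here for the other filters or the left-out libraries. With 10 reads or more in all libraries (26 loci) 1 was higher and 10 lower in HS, and 2 were higher and 10 lower in recovery against HS. DESeq2 called 9 lower in recovery against control. Leaving out 1 library gave 3 (without HS replicate 2) to 14 (without control replicate 2) higher and 18 to 36 lower loci in HS, 0 to 40 lower in recovery against control, and 10 to 16 higher and 9 to 28 lower in recovery against HS. The difference of the plastid share ranged from -0.563 to -0.355 points in HS and from -0.526 to -0.317 after recovery. It was -0.0159 and -0.0126 without ribosomal and transfer RNA loci, and -0.239 and -0.218 with repeat copies counted once. Without the locus with most reads, 1 copy of *rrn23S*, the difference was -0.31 in HS, while the other copy stayed in the share. Replicate numbers did not pair the libraries (correlations -0.02, -0.05 and 0.03). With the replicate block 27 loci were lower in HS and 2 in recovery against control; there *psbA*, *rbcL*, *trnV* and *rrn16S* did not pass (adjusted p = 0.0641, 0.0734, 0.074 and 0.0508 from edgeR) and *rrn23S* did (0.0493). Of the alternatives for 33 named loci in HS, 396 values stayed on their side of the threshold, 29 no longer passed and 14 newly passed. A further 3 changed sign where the main or the alternative value passed. Any sign change where neither passed is counted among the 396. In recovery against control these numbers were 369, 25, 46 and 0. The causes were not tested.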
